A study of Mus musculus with 2 samples.

Results

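The 38 genes described here carry fatty acids from the blood into the matrix of the mitochondrion and oxidise them there, or control how much of that happens. They were taken by symbol from a fixed list, and all 38 were found among the 55536 named genes of the deposited tables. RNA came from gastrocnemius, the large calf muscle, of 10 day old female B6CASTF1/J mice, first-generation hybrids between C57BL/6J and CAST/EiJ, with no treatment named in the labels. There is 1 group of 2 libraries, biological replicates 1 and 2, each made from 300 ng of total RNA depleted of ribosomal RNA, with ERCC spike-in RNAs added. Both carry the same donor label, and the labels do not say whether each is 1 animal, so the spread between them may be partly technical. There is no second age, sex, tissue or treatment, and reads were counted against 1 reference genome, so the values sum both parental alleles.

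Skeletal muscle takes up fatty acids released from circulating lipoproteins or bound to albumin, joins them to coenzyme A, and moves the long-chain ones into mitochondria as carnitine esters. Inside, each turn of beta-oxidation runs through a dehydrogenase, a hydratase, a second dehydrogenase and a thiolase, and shortens the chain while passing electrons to the respiratory chain. Malonyl-CoA, made by acetyl-CoA carboxylase, inhibits the carnitine step and so sets the rate of entry. Several of these reactions are served by related genes, isozymes, that differ in chain length or in the tissue that uses them, which is why shares within each family are given below.

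The libraries held 35925081 expected counts in replicate 1 and 39969380 in replicate 2, of which 0.720% and 0.798% were spike-in counts. The 8 fibre markers, led by Acta1, Mylpf and Ckm, summed to 75471 and 89599 TPM (a share of all transcripts, corrected for transcript length) in replicates 1 and 2. Replicate 1 stood apart in bone and marrow RNA: the 8 markers of those tissues (Spp1, Bglap, Acp5, Ibsp, Mmp13, S100a8, S100a9 and Ngp), all more than 2-fold higher in it, summed to 340.0 TPM in replicate 1 and to 1.88 TPM in replicate 2, where Ibsp, Bglap and Ngp were at 0 counts. Of all genes that averaged 10 counts or more, 7.37% passed 2-fold in either direction. These markers were chosen with earlier results of these data known, so their number past 2-fold is a description only. In bulk tissue, fewer cells of a type and less RNA per cell cannot be told apart. Levels below are TPM from the RSEM-format gene tables, given for replicate 1 and then replicate 2, with the mean ± SD over the 2 libraries where a mean is given. With 1 library on each side of any difference, no test between them is possible and none was made.

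All 38 genes were detected, taken as at least 1 TPM in both libraries, which 22.6% of all named genes reached. That share is over genes of every class, while all 38 are protein coding, and was not taken over protein-coding genes alone. Together they held 2344 TPM in replicate 1 and 2304 TPM in replicate 2, or 0.237% and 0.233% of the TPM of all named genes. The middle gene of the list averaged 41.3 TPM, against 9.35 TPM for the median of 11514 detected nuclear protein-coding genes. Mean levels ran from 4.75 TPM for Acsl5 to 206 TPM for Fabp3, with 31 genes at 10 TPM or more and 10 at 100 TPM or more. By step, the hydratase, dehydrogenase and thiolase genes held 19.99% ± 0.132 of the 38 genes' TPM, uptake 18.5% ± 0.665, the acyl-CoA dehydrogenases 16.2% ± 0.0130, electron transfer 12.8% ± 0.612 and the carnitine shuttle 10.3% ± 0.133. The auxiliary enzymes of unsaturated chains held 6.15% ± 0.129, activation 5.83% ± 0.0293, lipolysis 3.95% ± 0.0632, the thioesterases with Ucp3 3.53% ± 0.0904, and malonyl-CoA metabolism 2.73% ± 0.154. These shares also reflect how many genes the list holds for each step, from 3 to 5.

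**Figure D1:**
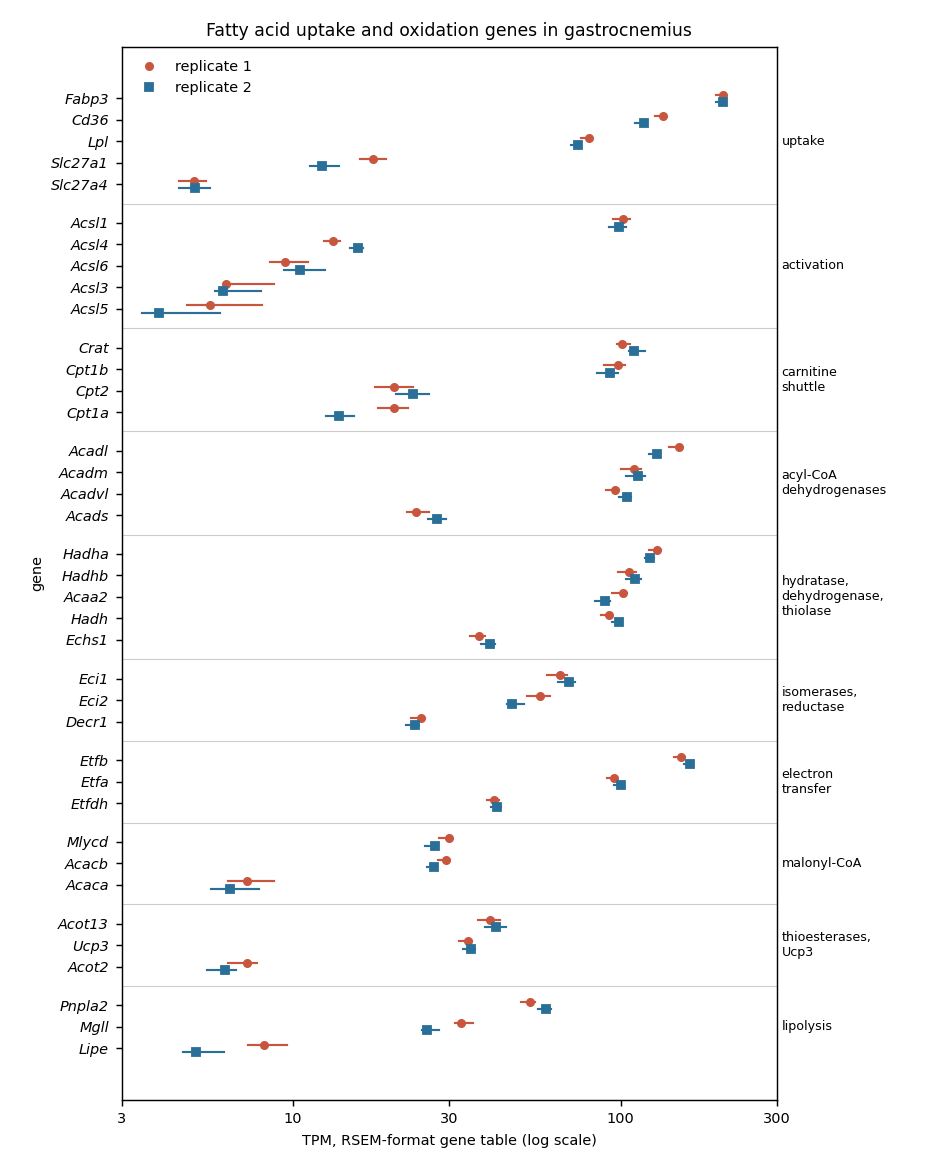
TPM of each of the 38 genes on a log axis, grouped by step, with a circle for replicate 1, a square for replicate 2 and bars for the credibility interval deposited within each library. Fabp3 lies highest at 206 and 205 TPM, and 10 of the 38 genes average 100 TPM or more; a point can sit outside its bar because the interval belongs to the posterior estimate.

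At the entry step, Fabp3, the cytosolic fatty acid binding protein of heart and muscle (ENSMUSG00000028773.8, chromosome 4, 130308595 to 130315463, plus strand), stood at 206 and 205 TPM, the highest level of the list. Its level exceeded that of 97.7% of the detected protein-coding genes. Of the 31-base words in its transcript, 37.3% also occur in other genes, mostly in the processed pseudogene Fabp3-ps1. That pseudogene was given 2.96 and 2.97 TPM in the RSEM-format tables and 0 TPM in the kallisto-format tables. Cd36, the membrane receptor that binds long-chain fatty acids (ENSMUSG00000002944.15, chromosome 5, 17781690 to 17888801, minus strand), had 135 and 118 TPM. Lpl, the lipase that frees fatty acids from lipoprotein triglyceride at the capillary wall, had 79.9 and 74.3 TPM. The fatty acid transport proteins lay far below these: Slc27a1 had 17.6 and 12.3 TPM and Slc27a4 had 4.97 and 5.04 TPM. Within that pair Slc27a1 held 74.4% ± 4.97 of the TPM, and 57.6% when only transcripts annotated as protein coding were counted. Of the Slc27a1 TPM, 43.6% ± 3.47 was assigned to such transcripts.

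Among the genes of activation to acyl-CoA, Acsl1 held most of the RNA. Acsl1, the long-chain acyl-CoA synthetase of heart, muscle and fat (chromosome 8, 46471037 to 46536051, plus strand), had 101.7 and 98.6 TPM and held 73.9% ± 1.08 of the TPM of the 5 synthetase genes. Next came Acsl4, which prefers arachidonic acid, with 13.2 and 15.7 TPM and a share of 10.7% ± 1.39. Acsl6, known best from brain, had 9.44 and 10.5 TPM (7.36% ± 0.60), and Acsl3, which acts at lipid droplets, had 6.26 and 6.10 TPM (4.56% ± 0.0514). Acsl5 was the lowest at 5.59 and 3.90 TPM (3.5% ± 0.857). Acsl1 stayed first in every other measure tried, at 70.7% by expected counts and 75.5% in the kallisto-format tables, while the credibility interval of Acsl3 overlapped those of Acsl5 and Acsl6 in replicate 1.

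In the carnitine shuttle the muscle isoform of carnitine palmitoyltransferase 1 led the liver isoform. Cpt1b (ENSMUSG00000078937.8, chromosome 15, 89416405 to 89425863, minus strand) had 98.2 and 93.2 TPM and Cpt1a had 20.3 and 13.8 TPM, so that Cpt1b held 85.0% ± 3.02 of their sum, a ratio of 5.71-fold (log2 2.52 ± 0.34). The share was 81.5% in the kallisto-format tables, 83.8% over coding transcripts and 78.6% by expected counts. Of the Cpt1b exon sequence, 79.7% of the 31-base words also occur in the readthrough gene Gm44502, which was given 0.36 and 0 TPM in the RSEM-format tables and 17.8 and 9.99 TPM in the kallisto-format tables. Cpt2, which turns acylcarnitine back into acyl-CoA at the inner membrane, had 20.4 and 23.2 TPM. Crat, which moves acetyl groups between coenzyme A and carnitine, had 101.1 and 110.2 TPM, slightly above Cpt1b in both libraries.

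The 4 acyl-CoA dehydrogenases, which open each turn of beta-oxidation and differ in the chain length they take, were led by Acadl. The long-chain gene Acadl had 150.3 and 129 TPM, the medium-chain gene Acadm 109.7 and 113 TPM, and the very-long-chain gene Acadvl 96.1 and 104.5 TPM. Acads, the short-chain gene, stood at 23.8 and 27.6 TPM, well under the others in both libraries. Their shares of the family were 37.0% ± 3.57, 29.5% ± 0.910, 26.6% ± 1.87 and 6.82% ± 0.784 in that order. The order of Acadm and Acadvl was not fixed: Acadvl held 32.8% and Acadm 23.6% in the kallisto-format tables. Acadl kept the first place there, at 37.4%, but only narrowly in replicate 2, at 35.1% against 34.3% for Acadvl. Acadvl also overlaps Dvl2 on the opposite strand over 1151 bases, 42.9% of its exon length, though Dvl2 itself had only 6.49 and 4.07 TPM.

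The remaining steps of the cycle stood at similar levels apart from Echs1. Hadha, the subunit of the mitochondrial trifunctional protein with hydratase and dehydrogenase activity, had 129 and 123 TPM, and Hadhb, its thiolase subunit, had 105.9 and 111 TPM. Hadh, the dehydrogenase for shorter chains, had 92.2 and 98.8 TPM, and Acaa2, a mitochondrial thiolase, had 101.9 and 89.8 TPM. Echs1, the hydratase for short chains, was at 37.0 and 39.8 TPM. Hadha and Hadhb lie head to head on chromosome 5, with 85 bases between Hadha (30118304 to 30155162, minus strand) and Hadhb (30155248 to 30184593, plus strand). The log2 ratio of Hadha over Hadhb was 0.29 in replicate 1 and 0.15 in replicate 2, a mean of 0.22 ± 0.10. It was -0.30 in the kallisto-format tables and -1.80 over transcripts annotated as coding, so these tables do not settle which subunit has more RNA.

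The value over coding transcripts rests on the annotation of the main Hadha transcript. Hadha-201, at 2552 bases, held 73.8% and 79.5% of the Hadha TPM in replicates 1 and 2 but is annotated as a processed transcript without a coding sequence, and Hadha-205, annotated as coding, held 16.7% and 16.3%. In the kallisto-format tables Hadha-201 held 75.1% and 78.7%. For Hadhb, a 507-base retained-intron transcript, Hadhb-208, held 28.9% and 32.8% in the RSEM-format tables and 53.3% and 57.0% in the kallisto-format tables. Hadhb also shares 23.3% of its 31-base words with other genes, most of them with the processed pseudogene Gm13910, which was given 13.0 and 13.5 TPM.

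Of the enzymes that deal with double bonds, the isomerases Eci1 and Eci2 had similar levels and the reductase Decr1 was lower. Eci1 had 65.1 and 69.5 TPM, Eci2 had 56.6 and 46.6 TPM and Decr1 had 24.5 and 23.5 TPM. Eci1 held 56.7% ± 4.51 of the isomerase pair in these tables, 49.1% in the kallisto-format tables and 49.3% by expected counts, so neither isomerase led under every measure. Eci2 shares 13.6% of its 31-base words with other genes.

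Electron transfer flavoprotein, which takes electrons from the acyl-CoA dehydrogenases, has subunits encoded by Etfa and Etfb. Etfb had 153 and 163 TPM and Etfa 95.8 and 100.3 TPM, a log2 ratio of 0.69 ± 0.02 that was 0.66 in the kallisto-format tables and 0.71 over coding transcripts. Unlike the trifunctional subunits, this pair kept its order in the TPM of both formats and over coding transcripts. By expected counts, which are not divided by length, Etfb held 49.9% and Etfa 50.1%. Etfdh, which hands the electrons to ubiquinone, had 41.2 and 42.1 TPM. One limit on the Etfb level is that 49.9% of its 31-base words also occur in other genes. Nearly all of these are in the readthrough gene Gm45233, which was given 0.54 and 0.14 TPM. Etfa shares 10.8% of its 31-base words with other genes.

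Among the genes of malonyl-CoA, the carboxylase bound to the mitochondrial surface led the cytosolic one. Acacb had 29.3 and 26.9 TPM and Acaca, known for its role in fatty acid synthesis, had 7.26 and 6.43 TPM, so that Acacb held 80.4% ± 0.381 of the pair, with 80.7% in the kallisto-format tables and 87.2% by expected counts. Mlycd, which breaks malonyl-CoA down, had 29.9 and 27.1 TPM, close to Acacb. Acaca shares 33.4% of its 31-base words with other genes, chiefly the pseudogene Gm5182 at 1.06 and 0.77 TPM.

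The thioesterases split acyl-CoA back into fatty acid and coenzyme A. Acot13 had 40.0 and 41.8 TPM and the mitochondrial Acot2 had 7.22 and 6.18 TPM. Acot13 held 85.9% ± 1.70 of the sum of these 2 genes. Thioesterase genes outside the list are left out of this share, and of them Acot9, at 12.4 and 11.2 TPM, lay above Acot2. By expected counts, which are not divided by length, the share of Acot13 was 64.4%. Acot2 shares 37.3% of its 31-base words with other genes, mostly with its neighbour Acot1 at 3.62 and 3.47 TPM. Ucp3, the uncoupling protein of skeletal muscle, had 34.1 and 35.0 TPM, whereas Ucp1, the uncoupling protein of brown fat, had 0 counts in both libraries, with Cidea at 2.23 and 1.41 TPM and Elovl3 at 0.02 TPM in both as the other markers of brown fat.

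Of the lipases that release fatty acids from stored triglyceride, Pnpla2, which acts first, had 52.9 and 59.1 TPM. Mgll, which acts last, had 32.5 and 25.7 TPM, and Lipe, which acts between them, had 8.13 and 5.05 TPM. Pnpla2 held 61.2% ± 6.51 of the lipase TPM over all transcripts. Its highest transcript, Pnpla2-201, is annotated as a target of nonsense-mediated decay and held 62.6% and 53.1% of the gene. Over coding transcripts alone Pnpla2 held 38.8% and Mgll 50.5%, so the leading lipase gene depended on which transcripts were counted. By expected counts Pnpla2 averaged 46.45% and Mgll 45.77%. Mgll was ahead in replicate 1, at 48.55% against 42.37%, and Pnpla2 in replicate 2, at 50.53% against 42.99%.

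**Figure D2:**
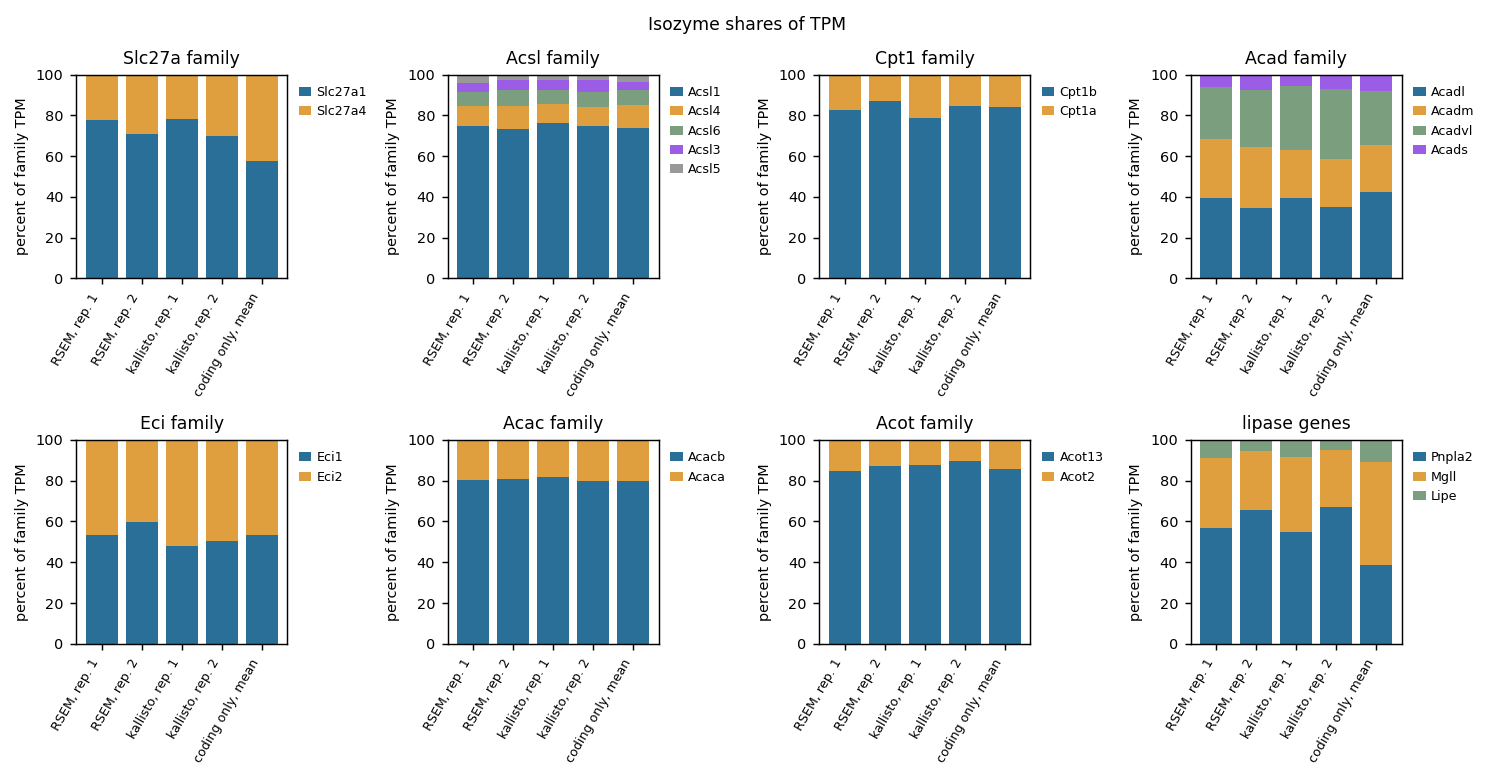
Stacked bars of the percent of a family's TPM held by each gene, for the 2 libraries in the RSEM-format tables, the 2 libraries in the kallisto-format tables and the mean over transcripts annotated as coding. Acsl1, Cpt1b, Acacb and Acot13 lead in every bar, Eci1 and Eci2 change places, and the Slc27a and lipase bars shift when only coding transcripts are counted.

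Across the 8 families and 4 other measures, the gene with the largest mean share over the libraries was the same in 29 of 32 combinations. The exceptions were Eci2 over Eci1 in the kallisto-format tables and by expected counts, and Mgll over Pnpla2 over coding transcripts. For the isomerases the libraries did not agree. Eci1 held 47.9% and 50.3% in replicates 1 and 2 in the kallisto-format tables, and 47.3% and 51.2% by expected counts. Transcripts were compared in the sense direction only. No 31-base word was shared in any of the 24 pairs within these families, nor between Hadha and Hadhb or Etfa and Etfb. An exact sense match of 31 bases thus tells these genes apart. Against all other genes in that direction, 14 of the 38 shared no such word, 20 shared under 1%, and 8 shared 10% or more. These counts leave out genes that overlap on the opposite strand, such as Dvl2 for Acadvl.

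At the transcript level most of the genes rested on annotated coding transcripts. The share of TPM in transcripts annotated as protein coding had a median of 95.2% over the 38 genes, against 91.3% over detected protein-coding genes, and it was 90% or more for 26 of the 38. In the kallisto-format tables the medians were 93.1% and 89.3%. Below the others lay Hadha at 16.5% ± 0.289, Pnpla2 at 37.3% ± 4.76, Slc27a1 at 43.6% ± 3.47, Acadm at 63.4% ± 0.552 and Hadhb at 67.2% ± 2.39. For Acadm the gap came from 2 short retained-intron transcripts, Acadm-207 and Acadm-210, which held 17.7% and 16.3%, and 13.0% and 16.7%, of the gene in replicates 1 and 2. Both had 0 TPM in the kallisto-format tables, where the coding share of Acadm was 90.5%. Lpl carried a transcript annotated for decay, Lpl-203, at 22.3% and 22.8%.

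**Figure D3:**
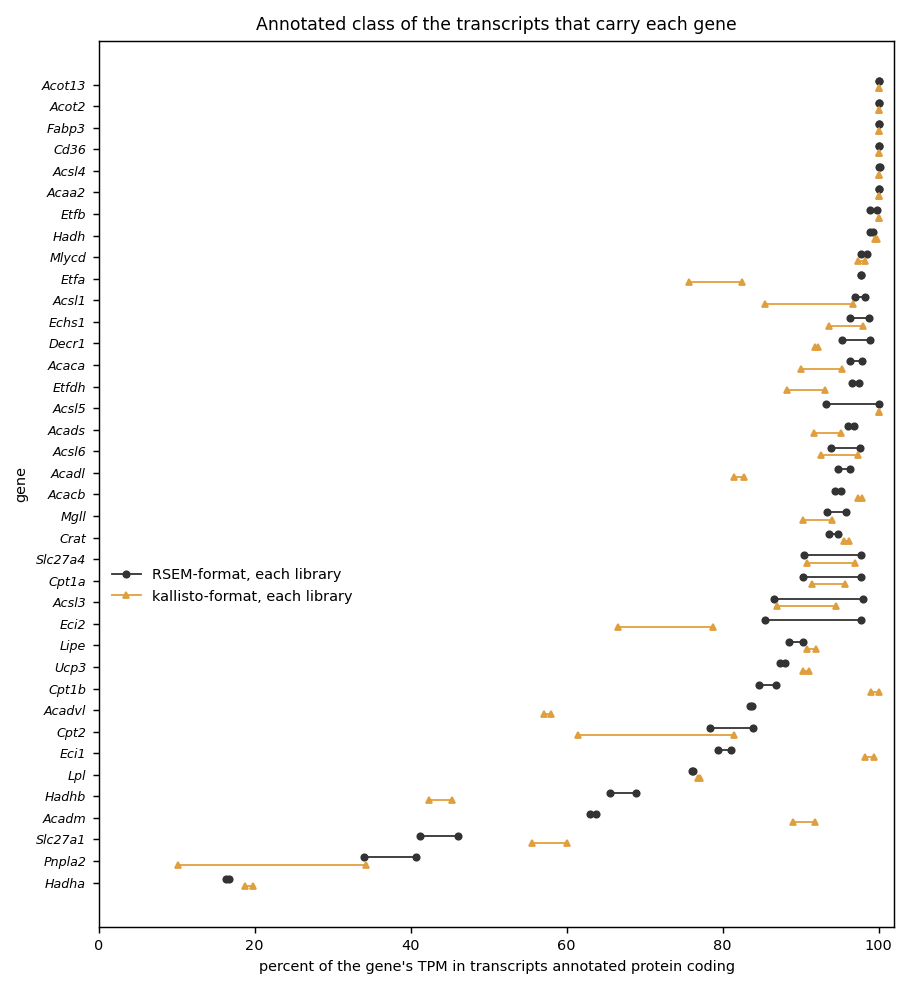
Percent of each gene's TPM in transcripts annotated as protein coding, with circles for the 2 libraries in the RSEM-format tables and triangles for the 2 libraries in the kallisto-format tables, each pair joined by a line. Hadha lies lowest at 16.7% and 16.3% in the RSEM-format tables, and for Acadm, Acadvl, Hadhb, Eci1, Acadl, Cpt1b and Etfa, among others, the 2 formats lie apart by more than the libraries do.

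Of the 36 genes with at least 2 annotated transcripts, the highest transcript by its mean share over both libraries was not annotated as coding in 2, Hadha and Pnpla2, where 7.1% of detected protein-coding genes were of that kind. The highest transcript held under 60% in 11 of the 36, against 43.6% of detected genes. These 11 were Cd36, Slc27a1, Acsl4, Acsl5, Acsl6, Crat, Hadhb, Eci2, Acaca, Pnpla2 and Lipe. The highest transcript differed between the RSEM-format and kallisto-format tables in 7 of the 36, against 24.1% of detected genes, and all 7 are named next.

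For Cd36, the RSEM-format tables gave Cd36-203 51.4% and 50.7% and the kallisto-format tables gave Cd36-202 31.6% and 49.96%, although every transcript at 5% or more of Cd36 is annotated as coding. For Acsl4 the RSEM-format tables gave Acsl4-203 56.2% and 61.3% in replicates 1 and 2, and the kallisto-format tables gave the same transcript 5.93% and 72.1%. The split of Acsl4 between transcripts was thus unstable between libraries in 1 format only. Crat was divided between Crat-201 at 56.9% and 58.7% and Crat-202 at 30.6% and 28.3%, and the kallisto-format tables gave Crat-202 42.3% and 45.0%. For Mgll the leading transcript was Mgll-204 at 78.2% and 82.7% in the RSEM-format tables and Mgll-201 at 47.0% and 47.5% in the kallisto-format tables. Hadhb was described above. For Eci2 the RSEM-format tables gave Eci2-211 49.7% and 57.9%, and the kallisto-format tables gave Eci2-203 33.1% and 24.6%, with the retained-intron transcript Eci2-205 above it in replicate 2 at 30.6%. Lipe had Lipe-202 first in the RSEM-format tables, at 42.4% and 50.8%. In the kallisto-format tables Lipe-208 was first in replicate 1, at 46.7% against 27.1% for Lipe-202, and Lipe-202 in replicate 2, at 39.7% against 36.1% for Lipe-208. The first transcript was the same in both libraries for 37 of the 38 genes in the RSEM-format tables, the exception being Slc27a1, and for 33 in the kallisto-format tables.

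At the gene level the table kinds differed mostly by a common shift. The log2 ratio of RSEM-format over kallisto-format TPM had a median of -0.53 over the 38 genes and -0.52 over all detected genes, and ranged from -1.09 for Eci2 to -0.25 for Acadm. None of the 38 passed 2-fold in the same direction in both libraries, a limit that 8.9% of detected genes passed. Relative to the median of all detected genes, a comparison added after seeing the data, it was again 0 of the 38, against 4.73% of detected genes. Both shares are over detected genes of every class and count. No share was taken for protein-coding genes of like count, so the 0 is a description only. The genes with the lowest ratios after Eci2 were Hadhb at -0.96, Acadvl at -0.88 and Acsl3 at -0.84.

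Between the libraries the 38 genes differed little, and most were somewhat lower in replicate 1 on the scale of all genes. Expected counts were scaled by TMM, a method that sets the trimmed mean log ratio of all genes to 0, and log2 ratios of replicate 1 over replicate 2 were taken. Their median was -0.20 over the 38 genes and 0.01 over the 16790 genes that averaged 10 counts or more, with 32 of the 38 under and 6 over the median of all genes. None passed 2-fold in either direction, which 7.37% of all genes did, and 1.06% of the 11760 genes that averaged 100 counts or more, as all 38 did. A count of 0 is thus near the share for genes of like count. The extremes were -0.49 for Acsl4, with 1838 counts in replicate 1 and 2476 in replicate 2, and 0.35 for Lipe, with 562 and 424. The 6 genes above the median of all genes were Lipe, Slc27a1 at 0.23, Acsl5 at 0.14, Cpt1a at 0.11, Acaca at 0.06 and Mgll at 0.03. Whether a gene counts as higher or lower here depends on the scaling: by library totals 19 of the 38 ratios were above 0 and 19 under it, and by spike-in totals 33 were above 0, because the median of all genes moved by 0.21 and 0.36. These scalings move all genes together, so the position of the 38 relative to the median of all genes is the same under each by construction.

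By step, the acyl-CoA dehydrogenases (median -0.34, 4 of 4 below the median of all genes), electron transfer (-0.31, 3 of 3) and the hydratase, dehydrogenase and thiolase genes (-0.26, 5 of 5) were all on the lower side in replicate 1. The uptake genes had a median of -0.13 with 4 of 5 below, and the lipases 0.03 with 1 of 3 below. The 8 fibre markers moved in the same direction as the mitochondrial steps, with a median of -0.47, a range of -0.78 to -0.18 and 8 of 8 under the median of all genes. Endothelial markers, from cells that also express Cd36, ranged from -0.17 to -0.02 in 8 of 8 genes and summed to 247.5 and 220.0 TPM, with Cdh5, Pecam1 and Gpihbp1 highest. Adipocyte markers summed to 28.2 and 10.5 TPM. All 6 with enough counts were higher in replicate 1, at a median of 1.33. Past 2-fold were 5 of them, Plin1, Cidec, Lep, Cfd and Pck1, against 7.37% of all genes, and Adipoq was at 0.94. This list too was chosen with earlier results known. Plin1, the coat protein of fat cell droplets, had 331 and 91 counts, while Adrb3 had 2 and 0. Of some members that fat cells are also known to express, Lipe, Slc27a1 and Mgll lay above the median of all genes. Cd36 at -0.05, Acsl1 at -0.12, Lpl at -0.13 and Pnpla2 at -0.40 lay under it. These members were picked by hand and not from a fixed list. Acaca, Acsl5 and Cpt1a, also above the median, were not among them, so this split is a description only. The part of fibre, fat, endothelial or bone and marrow cells in the differences between these libraries was not tested.

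**Figure D4:**
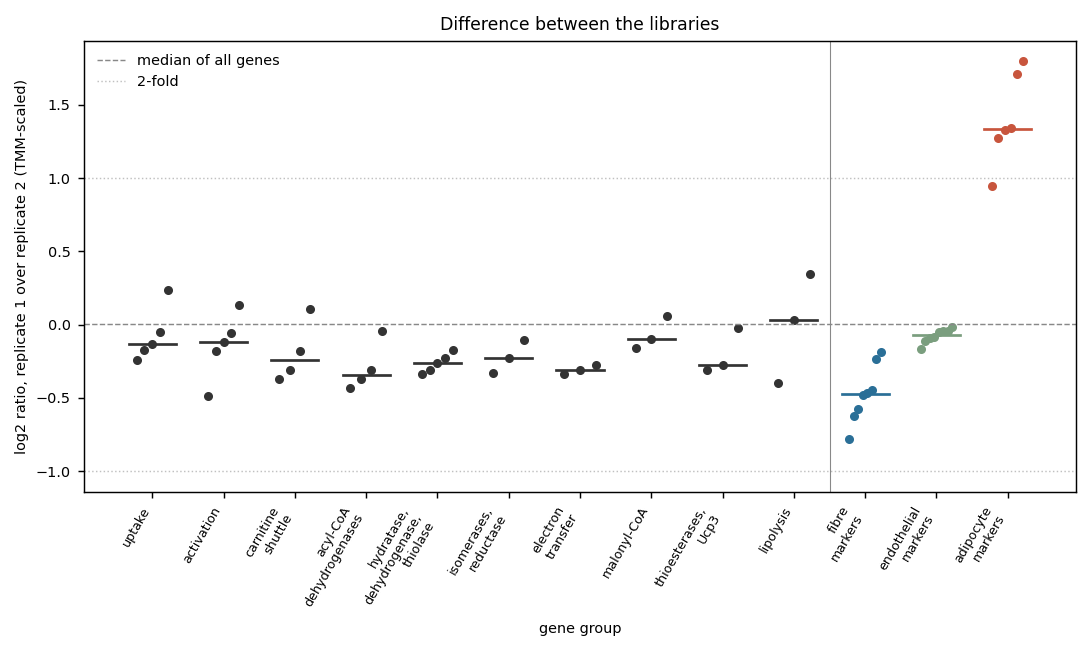
Log2 ratio of replicate 1 over replicate 2 of TMM-scaled counts for every gene of each step and for fibre, endothelial and adipocyte markers, with a bar at each group's median, a dashed line at the median of all genes and dotted lines at 2-fold. All 38 genes lie between -0.49 and 0.35, fibre markers lie lower at a median of -0.47, and 5 of the 6 adipocyte markers lie above the 2-fold line.

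On the TPM scale the ratios are shifted, with a median log2 ratio of replicate 1 over replicate 2 of 0.02 over the 38 genes and 0.19 over detected protein-coding genes. The credibility intervals that the authors deposited within each library did not overlap between the libraries for 14 of the 38, against 30.1% of detected protein-coding genes. These intervals cover counting and read assignment in a library, not animals. Of the 14, 11 were higher in replicate 1 (Cd36, Lpl, Slc27a1, Cpt1a, Acadl, Eci2, Acaa2, Acacb, Mlycd, Lipe and Mgll) and 3 in replicate 2 (Acsl4, Hadh and Pnpla2). For Cpt1a the TPM log2 ratio was 0.56 and the count ratio 0.11, and a 659-base transcript, Cpt1a-205, held 16.5% of its TPM in replicate 1 and 8.81% in replicate 2. Cpt1a-205 had 0 TPM in both libraries in the kallisto-format tables, where Cpt1a also differed, at 32.1 and 20.8 TPM. The cause of the gap between the 2 ratios was not tested.

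Promoter sequence was examined in RefSeq windows (GRCm38.p6) from 250 bases before to 50 after each start, which were given for 32 of the 38 genes as 39 windows and not for Lpl, Cpt1b, Crat, Acaa2, Decr1 and Acot13. Genes of fatty acid oxidation are known targets of the nuclear receptors PPAR, which bind with RXR to a direct repeat, and ERR. The PPAR:RXR letters, AGGTCA repeated after a gap of 1 base, with at most 2 mismatches on either strand, were in 4 of the 39 windows (10.3%) and in 3.86% of all 32851 windows, and the 4 belong to Cd36, Ucp3, Echs1 and Etfa. The ERR letters TNAAGGTCA, without mismatch on either strand, were in 1 of the 39 (2.56%), that of Acsl6, and in 1.28% of all windows. Both motifs contain AGGTCA, so their matches can overlap. A match is a description of letters and not a site of binding. Each of the 4 PPAR:RXR matches had 2 mismatches, the most that was allowed. The windows of Echs1 and Etfa hold matches too but are not shown. Shown in full are the windows of Cd36 (chr5:17835847-17836146, minus strand, at a start inside the M21 gene, match at -63 from the start on the opposite strand), Ucp3 (chr7:100472741-100473040, plus strand, match at -51 on the same strand) and Acsl6 (chr11:54303574-54303873, plus strand, match at -167 on the opposite strand), 5′ to 3′ on the gene's strand with the match in capitals.
Cd36: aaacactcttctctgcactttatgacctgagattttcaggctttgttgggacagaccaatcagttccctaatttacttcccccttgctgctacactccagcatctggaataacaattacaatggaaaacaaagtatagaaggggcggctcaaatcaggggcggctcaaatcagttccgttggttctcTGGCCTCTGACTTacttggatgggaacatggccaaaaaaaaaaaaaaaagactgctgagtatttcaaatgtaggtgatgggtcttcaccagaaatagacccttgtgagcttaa
Ucp3: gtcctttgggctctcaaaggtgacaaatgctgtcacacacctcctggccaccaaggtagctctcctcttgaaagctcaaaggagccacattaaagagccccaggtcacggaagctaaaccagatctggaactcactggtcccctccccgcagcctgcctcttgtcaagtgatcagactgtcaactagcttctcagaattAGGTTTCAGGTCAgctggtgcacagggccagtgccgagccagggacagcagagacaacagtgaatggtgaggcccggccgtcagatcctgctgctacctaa
Acsl6: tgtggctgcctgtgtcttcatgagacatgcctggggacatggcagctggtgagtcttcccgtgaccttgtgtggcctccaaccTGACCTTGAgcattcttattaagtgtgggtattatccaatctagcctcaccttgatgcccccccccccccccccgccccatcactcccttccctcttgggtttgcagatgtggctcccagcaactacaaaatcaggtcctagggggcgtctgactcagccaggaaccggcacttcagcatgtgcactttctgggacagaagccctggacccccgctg
The Ucp3 match AGGTTTCAGGTCA keeps the second AGGTCA whole and the Echs1 match keeps the first, while the Cd36 and Etfa matches keep neither. On average the 4 genes with a PPAR:RXR match stood at 126 TPM (Cd36), 98.1 TPM (Etfa), 38.4 TPM (Echs1) and 34.5 TPM (Ucp3), and Acsl6, with the ERR match, at 9.96 TPM.

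Another 51 genes of the pathway were chosen with earlier results known. Of these, 41 were detected, against 22.6% of all named genes of every class. Counts were enough for a ratio in 46, with a median of -0.17 and 13 of 46 above 0. The highest were Fabp4, a binding protein of fat and endothelial cells, at 144.6 and 116 TPM, Dbi, the acyl-CoA binding protein, at 112 and 108.5 TPM, and Ech1, a dienoyl-CoA isomerase, at 80.5 and 80.8 TPM. Past 2-fold were 2 of the 46, against 7.37% of all genes that averaged 10 counts or more. Both had low counts and were higher in replicate 1: Acaa1b, a peroxisomal thiolase, with 35 and 13 counts, and Acsbg1, an acyl-CoA synthetase, with 17 and 6. Slc25a20, the carrier that exchanges acylcarnitine across the inner membrane between the enzymes of the shuttle, had 28.2 and 26.8 TPM. It was picked for its place in the pathway after its values had been seen.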

How the data were processed

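Total RNA-seq of gastrocnemius was deposited as 2 libraries, biological replicates 1 and 2. Per the deposited text beside the tables, features are those of GENCODE M21 on mm10; aligner and counter (not given in the sources used here) stay unnamed, and tables are called RSEM-format (aligned to the transcriptome) and kallisto-format (directly from reads) after their columns. The authors deposited expected counts and estimated counts, in which a read matching several features is divided by a model, TPM values per length over all rows including spike-ins, posterior mean TPM, the percent of a gene's TPM by transcript and, per the file headers, signal values that bound the credibility interval of TPM, whose level is not stated. Reads matching several genes can therefore be assigned differently by each format.

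Members, families, steps and lists were chosen with earlier results of these data known. All 38 members are named. Of other lists, the 3 highest by TPM, those at 0 in both libraries and those past 2-fold are named. Adrb3, Slc25a20 and Acot9 are named beyond that rule. Expected counts, rounded to whole numbers, were scaled by TMM in edgeR 4.0.16 (R 4.3.3) with a prior count of 0.5 for genes averaging at least 10 counts. Alternatives were size factors from DESeq2 1.42.0, totals per library and totals of spike-ins. TPM ratios used a pseudocount of 0.01. Kallisto-format TPM was summed per gene, isozyme shares were taken within each library, and 31-base words were compared between M21 transcripts in the sense direction only. The ratio calculation was tested on simulated data. No test was made, since each side of a difference is 1 library. Depth was 35925081 and 39969380 expected counts, and counting error is covered by the credibility intervals only.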

Additional observations from a re-analysis of the deposited data

How the results depend on the processing

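No paired analysis was possible because there is 1 group. Leaving out 1 of 2 libraries cannot move a share or ratio past its SD, so it is not counted here. Rescaling cannot move a gene relative to the median of all genes, so it is not counted for that difference. It is counted for the number of members past 2-fold between the libraries, which was 0 under each scaling. Of the other alternatives to the main results, 35 stayed within the spread or side they had, 13 moved and 2 reversed. For other results, 18 stayed, 11 moved and 1 reversed. Some of the 35 could not have come out otherwise. Genes that reach 1 TPM also reach 0.5 TPM. All 38 average 100 counts or more, so the limit on mean count cannot change how many pass 2-fold between the libraries. In the kallisto-format tables the log2 ratio of Hadha over Hadhb was -0.30 and that of Eci1 over Eci2 -0.051. The latter was -0.12 in replicate 1 and 0.02 in replicate 2, so the libraries did not agree on its direction. Over coding transcripts Hadha over Hadhb was -1.80. The main values were 0.22 for Hadha over Hadhb and 0.39 for Eci1 over Eci2. Shares moved in the kallisto-format tables to 75.5% for Acsl1, 81.5% for Cpt1b and 49.1% for Eci1, with posterior mean TPM to 72.6% for Acsl1 and 79.6% for Acacb, over coding transcripts to 57.6% for Slc27a1 and 42.7% for Acadl, and by expected counts, which are not divided by length, to 70.7% for Acsl1, 78.6% for Cpt1b, 63.2% for Slc27a1, 87.2% for Acacb and 49.3% for Eci1. With 1 library left out in turn, shares ranged from 73.1% to 74.7% for Acsl1, 82.9% to 87.1% for Cpt1b, 70.9% to 78.0% for Slc27a1, 34.5% to 39.5% for Acadl, 80.2% to 80.7% for Acacb and 53.5% to 59.8% for Eci1, and the ratios from 0.15 to 0.29 for Hadha over Hadhb and 0.68 to 0.70 for Etfb over Etfa. The members past 2-fold between table kinds were 0 without replicate 2 and 2 without replicate 1 (Eci2 and Acsl3). A 1.5-fold limit was passed in both libraries by 10 of the 38, against 34.1% of detected genes of every class and count. Relative to the median of all genes, an alternative added after seeing the data, 0 of the 38 passed 1.5-fold, against 8.53%. The median ratio between libraries of the 38 genes minus that of all genes stayed negative, from -0.29 with kallisto-format counts to -0.15 for genes averaging at least 100 counts. The cause of these shifts was not tested. Depth limits the lowest genes most: Acsl5 and Acot2 rested on 392 and 342 and on 427 and 416 expected counts.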
